A study of Mus musculus with 21 samples.

Results

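The 84 genes described here encode the proteins of the cytosolic ribosome. They were taken by symbol from 35598 genes in each deposited table: Rpl or Rps followed by a number with an optional letter ending, plus Rplp0, Rplp1, Rplp2 and Rpsa, leaving out symbols marked as pseudogenes and the Rps6k kinases. By name 51 belong to the large (60S) subunit and 33 to the small (40S) subunit, and 7 of the 84 are paralogs of another member. One of them, Rps4l, is annotated as a transcribed processed pseudogene. The rule for members reads symbols and no measured value.

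The samples were glomeruli, the filtering units of the kidney, cut by laser microdissection from 10 µm frozen kidney sections of 21 female mice, all 3 months old. Each mouse carried loxP-flanked Epac1 alleles (Epac1fl/fl, called flox below) or the same alleles together with a Cre recombinase driven by the promoter of a podocyte gene (NPHS2Cre:Epac1fl/fl, called cKO). Cre of this kind acts in podocytes, so Epac1 of endothelial, mesangial and other cells in the section stays intact, and no group carried Cre without the floxed alleles. Glomerulonephritis was induced by nephrotoxic serum injected on 2 days in a row. The flox groups held 3 mice given PBS, 3 mice on day 4 of the disease and 4 on day 11, and the cKO groups held 3, 4 and 4 mice in the same order. The day on which the PBS mice were killed is not stated for each mouse. Libraries were made with QuantSeq FWD, which reads a tag near the 3′ end of each mRNA.

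A ribosome joins a small subunit, which reads the mRNA, to a large subunit, which forms the peptide bonds. Each subunit takes its proteins in nearly equal numbers, and in growing cells the mRNAs of these proteins are among the most abundant. Most begin with a C followed by a run of pyrimidines, the 5′ terminal oligopyrimidine (TOP) tract, through which mTORC1 and the RNA-binding protein Larp1 set how strongly they are translated. Their promoters commonly carry ETS-family sites and sites for Yy1. Some ribosomal proteins also act off the ribosome: Rpl5 and Rpl11 bind the ubiquitin ligase Mdm2 when ribosome assembly fails, and Rps27l is a target of p53.

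The starts of 6 members are shown to let their tracts be seen beside the expression values given below. RefSeq promoters (GRCm38.p6) were on hand for 63 of the 84 members. Each line gives 30 bases of the transcribed strand, 5′ to 3′, beginning 5 bases before the RefSeq start, with a tract of at least 6 pyrimidines led by C in capitals where one begins within 5 bases of the start. Lines without capitals hold no such tract in that window. For Rpl22 the line lies upstream of the annotated gene, which begins at position 152325742. A tract at that start would not be seen.
Rps26 (chr10:128626482-128626511, minus strand): ccgccggatCCTCTTTCgagtcttggctcc
Rpl35a (chr16:33056477-33056506, plus strand): CCTTCCTCTTTCCgccatcttggcgcctgt
Rps21 (chr2:180257374-180257403, plus strand): ccgCCCTCCTgcccaatagtgctgcggagg
Rpl11 (chr4:136053369-136053398, minus strand): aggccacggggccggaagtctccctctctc
Rpl22 (chr4:152324431-152324460, plus strand): ggaatgttccagctcccactgacagaataa
Rps27l (chr9:66946081-66946110, plus strand): ccgccgcctctatcccggaagttgctgagg

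Such a tract was found in 26 of the 63 members (41.3%), against 11.9% of all 27025 genes in the promoter table. The window depends on the RefSeq start being exact, and a start placed some bases off, or upstream as for Rpl22, can hide a tract. On either strand of the 300-base promoter, the ETS-type letters ACTTCCG were present in 21 members (33.3%, all genes 7.20%), and the Yy1-type letters AAGATGGC in 6 (9.52%, all genes 3.19%). The letters TATAAA were present in 7 members (11.1%) and in 15.7% of all genes. Rpl35a held the Yy1-type letters, and Rpl11, Rps21 and Rps27l the ETS-type letters. The Yy1-type letters were also counted for Rpl22, but its searched window lies wholly upstream of the annotated gene.

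Library totals ran from 4550545 to 24295719 estimated reads, and the shallowest was cKO day 11 number 3. A single gene of ribosomal RNA, CT010467.1, took 14.9% to 39.5% of the reads of a library. Rapgef3, which encodes Epac1, stood at 310, 201 and 300 CPM (counts scaled to a common library size) in the flox PBS libraries and at 160, 137 and 64.4 in cKO PBS, with no overlap, whereas the genotypes overlapped on day 4 (flox 124 to 231, cKO 63.4 to 146) and on day 11 (flox 131 to 347, cKO 139 to 199.5). Where the 3′ tag lies relative to the deleted exons is not given in the sources used here. All 12 podocyte, 12 endothelial and 10 mesangial markers examined had reads. Summed proximal tubule markers (14 genes) ran from 1946 to 4730 CPM in PBS (median 3282), from 1983 to 6479 on day 4 (median 4373) and from 616 to 3419 on day 11 (median 1875), so tubule RNA was present in each library. Nothing in the labels says that mice were housed or handled in batches. In dissected tissue, fewer cells of a type and less RNA per cell cannot be told apart.

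Of the 84 genes, 76 had reads in all 21 libraries and each library held reads of 78 to 82 of them. The low-count filter left 81 to test. Those not tested were Rpl39l, with no read in any library, Rpl3l, at 0.293 CPM in 1 library, and Rpl10l, with reads only in cKO day 11 number 2 (49.0 CPM). These are the paralogs best known from testis, heart and skeletal muscle. In TPM, which is scaled to transcript length, the highest mean levels over the 21 libraries were those of Rps29 (4462), Rpl11 (3355), Rplp1 (2900) and Rpl27 (2521). A 3′ tag does not depend on that length, so this order leans towards short mRNAs.

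Many members share their 3′ ends with processed copies elsewhere in the genome. Over the last 300 bases, the median member shared 58.8% of its 50-base stretches with the transcript of another gene, 49 of 84 shared more than 50%, each taken as the median over its transcripts. For 11 members no transcript shared a stretch. How the authors assigned such reads is not given in the sources used here, so the levels of these genes are uncertain. Rps27 shows how far this can go: it had a mean of 133 TPM, whereas Rps27rt, a separately annotated copy left out by the symbol rule, had 2974 TPM, and 91.0% of the 50-base stretches of the Rps27 end occurred in Rps27rt (median over 4 transcripts). In CPM, Rps27 ranged from 0 to 91.8 over the libraries and Rps27rt from 268 to 761. Over the shared stretches the 2 annotations cannot be told apart by sequence, and single reads were not examined. Rps20 shared none. The median was 0% for Rpl22, although a transcript of it shared stretches with 4 other genes, and for Rps27l it was 11.0%, Rps26 62.5% and Rpl27 83.3%. For Rpl24 it was 81.3%, for Rpl18 82.5% and for Rpl10 100%.

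Together the 84 genes took 1.71% to 3.09% of all reads in a library. Leaving out the ribosomal RNA gene, they took 3.01, 3.06 and 2.96% in flox PBS and 2.84, 3.08 and 3.09% in cKO PBS, a narrow band over 6 mice. In cKO on day 4 the share was 3.63, 3.35, 3.40 and 3.55%, each above all 6 PBS libraries, with a group mean of 3.48% ± 0.132 (SD, n = 4) against 3.00% ± 0.141 (SD, n = 3) in cKO PBS. The mean log2 CPM over the tested members, in which each gene counts equally, overlapped between these groups, at 7.95, 7.57, 7.30 and 7.82 on day 4 and 7.42, 7.68 and 7.73 in PBS. Numbers 2 and 3 of cKO day 4 had reads for the fewest genes of all 21 (9032 and 7871, beside 9777 to 13006 in the others), and the share was 3.63 and 3.55% in the group's other libraries. The flox day 4 libraries lay on both sides of PBS at 3.03, 2.74 and 3.57%. On day 11 flox stood at 2.75, 2.94, 2.75 and 3.60% and cKO at 3.47, 3.37, 2.33 and 2.83%, a spread that covered the whole PBS range in both genotypes. With all reads as the denominator cKO day 4 (2.74% to 3.09%) and cKO PBS (2.12% to 2.56%) also did not overlap. The share is given as a description, with no test, since it sums over the chosen genes.

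**Figure D1:**
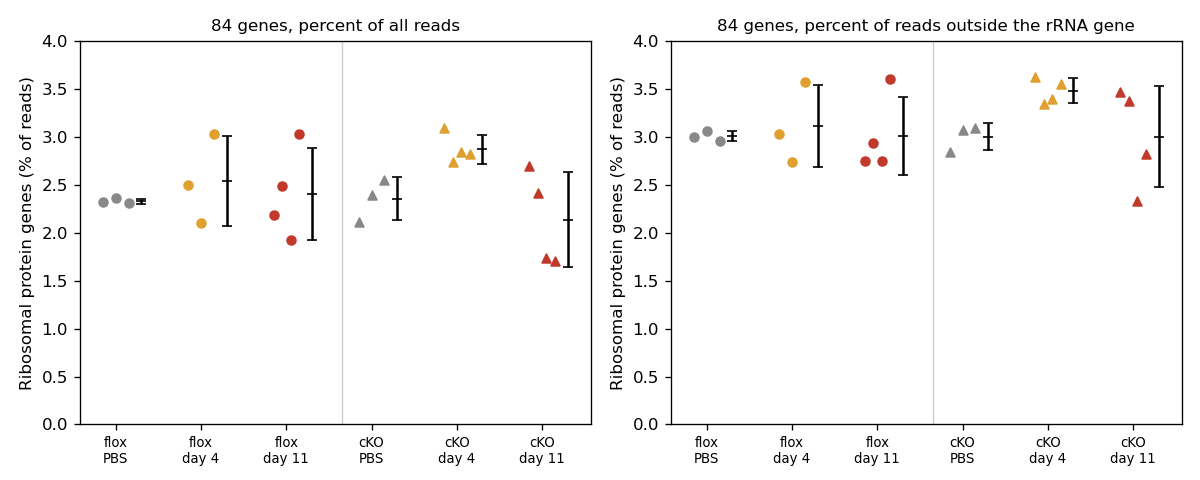
Percent of reads from the 84 ribosomal protein genes in each library, over all reads (left) and over reads outside the ribosomal RNA gene (right). Points are mice (circles flox, triangles cKO), bars are mean ± SD; the 4 cKO day 4 libraries lie above the 3 cKO PBS libraries in both panels, while the day 11 groups spread across the PBS range.

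The proportion of large to small subunit reads varied little between libraries. The ratio of 60S to 40S reads per library ran from 1.26 to 1.55, with a median of 1.34 in PBS, 1.34 on day 4 and 1.35 on day 11. Outside the ribosomal RNA gene, 60S genes took 1.72% ± 0.0675 (SD, n = 3) of reads in cKO PBS and 2.01% ± 0.0493 (SD, n = 4) in cKO on day 4. The 40S genes took 1.28% ± 0.0738 and 1.47% ± 0.119 in the same groups, and here the lowest day 4 library (1.31%) fell inside the PBS range (1.20% to 1.33%).

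Day 4 of the nephritis was compared with PBS over both genotypes by edgeR's quasi-likelihood test, in which each genotype counts equally. Of the 81 tested members 62 were higher and 19 lower, with a median log2 fold change of 0.18, against 50.5% of all 13898 genes higher and a median of 0.01. The members share libraries, so these are not independent counts. The mean log2 CPM over the tested members overlapped, at 7.10 to 7.73 in PBS and 7.30 to 7.97 on day 4. Its pooled SD within groups was 0.27. No member passed an adjusted p of 0.05, as did 3 of all genes (0.0216%). At an unadjusted p under 0.05 there were 15 members higher and 1 lower, where the same holds for 5.36% and 3.92% of all genes. DESeq2, run as an alternative, called 7 members, namely Rps26, Rpl11, Rpl27, Rpl5, Rps2 and Rps27l as higher and Rps20 as lower, while calling 9.04% of all genes, so its share of members is near the background. The counts of direction were alike in both subunits, leaving out paralogs: 37 of 46 for 60S and 21 of 31 for 40S genes were higher, both with a median of 0.18. Among the 71 members with an average log2 CPM of 6 or more, 53 were higher, beside 50.8% of all 2090 genes at that level.

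Rps26, a small subunit protein that lines the exit channel of the mRNA, had the smallest p on day 4. It stood at 315, 241 and 241 CPM in flox PBS and 356, 252 and 312 in cKO PBS. On day 4 it was at 490, 404 and 308 in flox and at 493, 720, 550 and 417 in cKO, so that 6 of 7 day 4 libraries exceeded every PBS library and the third flox library did not. The log2 fold change was 0.71 ± 0.20 (SE; adjusted p = 0.376, edgeR).

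Rpl11, which with Rpl5 and the 5S RNA forms the part of the large subunit that can bind Mdm2, ran at 246, 270 and 282 CPM in flox PBS and at 227, 376 and 262 in cKO PBS. It ran at 356, 368 and 441 on day 4 in flox and at 443, 639, 639 and 479 in cKO. Within each genotype the day 4 and PBS libraries did not overlap, although 1 cKO PBS library exceeded the 2 lowest flox day 4 libraries. The log2 fold change was 0.74 ± 0.25 (SE; adjusted p = 0.376, edgeR). Its partner Rpl5 was sparse and erratic, at 0, 0.166 and 9.29 CPM in flox PBS and 19.4 to 59.3 in cKO PBS, then 21.0 to 285 on day 4 in flox and 44.7 to 452 in cKO. The fitted log2 value of Rpl5, 3.80 ± 1.31, rests on the near-empty flox PBS libraries and became 6.38 without flox PBS number 3.

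Rpl27, a large subunit protein, was at 81.5, 240 and 141 CPM in flox PBS and at 215, 199.5 and 179.2 in cKO PBS. It was at 333, 285 and 342 on day 4 in flox and at 226, 341, 303 and 278 in cKO. All but 1 of the day 4 libraries lay above the highest PBS library (log2 fold change 0.80 ± 0.27 SE, adjusted p = 0.376, edgeR). The paralog Rps27l stood at 20.9, 25.1 and 33.3 CPM in flox PBS and at 47.2, 46.3 and 81.6 in cKO PBS. On day 4 it reached 104, 104 and 76.7 in flox and 102, 103, 102 and 83.8 in cKO, above the highest PBS value in 6 of 7 libraries (log2 fold change 1.29 ± 0.51 SE, adjusted p = 0.395, edgeR). Rps28, near the mRNA exit, had a log2 fold change of 0.78 ± 0.31 (SE) and the head protein Rps29 one of 0.51 ± 0.21 (SE), and for both the libraries of day 4 and PBS overlapped.

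Rps20, of the head of the small subunit and among the most abundant members, stood apart from this direction. Its levels were 1196, 1044 and 886 CPM in flox PBS and 1065, 976 and 788 in cKO PBS. On day 4 they were 694, 773 and 570 in flox and 688, 586, 541 and 753 in cKO. All 7 day 4 libraries lay below all 6 PBS libraries, a separation in that direction that 0.165% of all tested genes showed and that Rps20 alone showed among the 81 members; in the other direction it held for 0 members and 0.101% of all genes. The log2 fold change was -0.59 ± 0.19 (SE; adjusted p = 0.376, edgeR). Its 3′ end shares no 50-base stretch with another gene.

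Of the stalk proteins, which recruit elongation factors to the large subunit, Rplp0 was at 401, 230 and 288 CPM in flox PBS and 376, 388 and 425 in cKO PBS. On day 4 it was at 605, 513 and 477 in flox and at 625, 233, 503 and 545 in cKO, where only the second cKO library stayed within the PBS range (log2 fold change 0.53 ± 0.23 SE, edgeR). Rplp1 and Rplp2 had log2 values of 0.02 ± 0.16 and 0.10 ± 0.20 (SE). Rpsa, known also as a laminin receptor, exceeded the highest PBS library in 5 of 7 day 4 libraries, and its log2 fold change was 0.48 ± 0.24 (SE). Rps6, the protein whose phosphorylation by S6 kinase is the common readout of mTORC1, had a median of 168.4 CPM in PBS (125 to 217) and 271 on day 4 (176 to 340), with overlap. Rps27a, which is made as a fusion with ubiquitin, and Rpl13a, which is known as a translational repressor when released from the ribosome, had overlapping ranges, 100.6 to 354 against 136 to 374 CPM and 432 to 660 against 423 to 854 CPM.

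**Figure D2:**
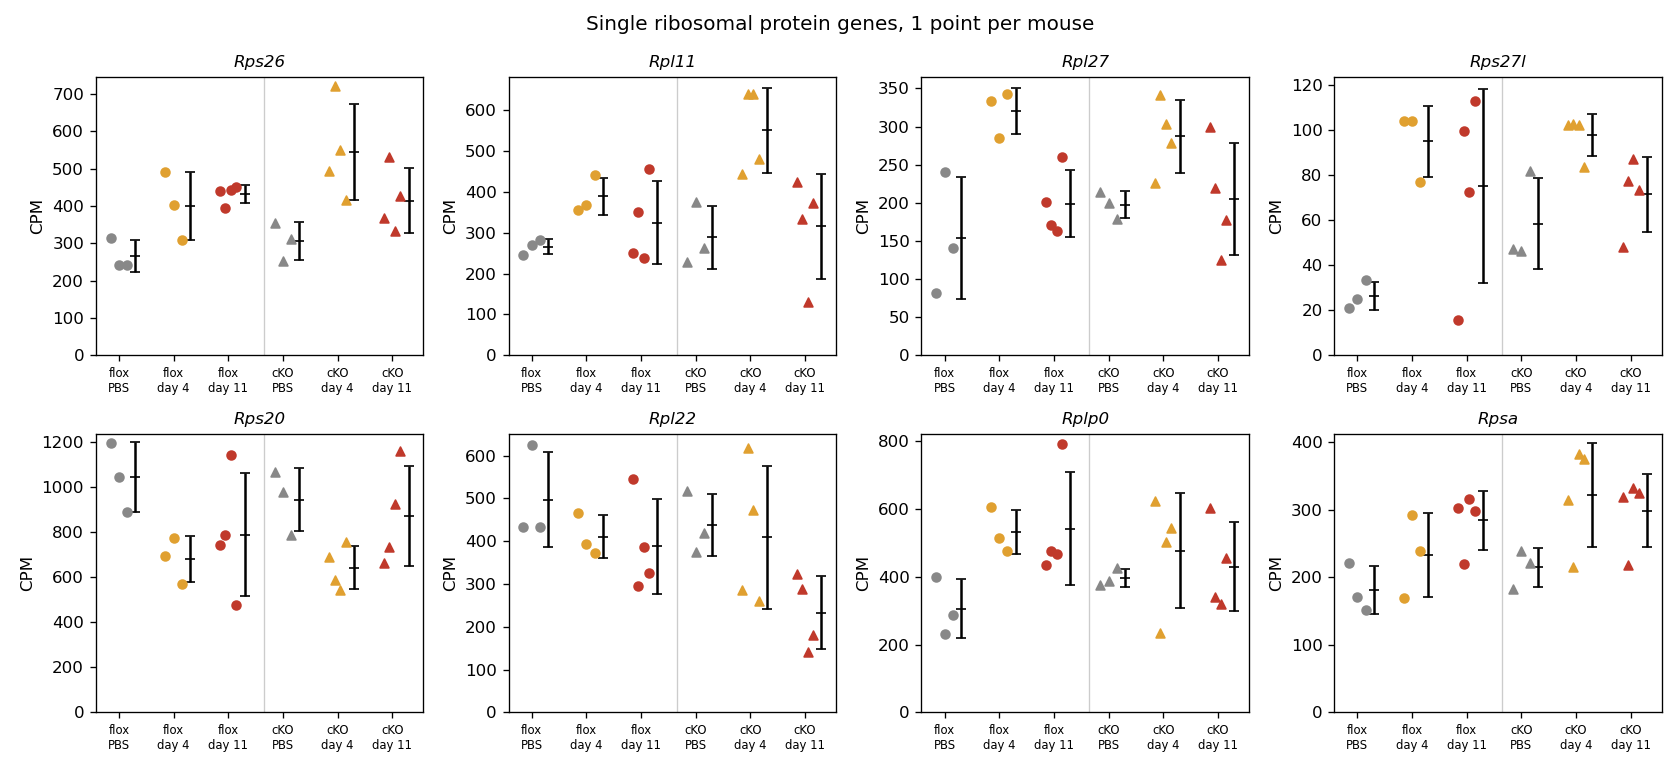
CPM of 8 members in each mouse (circles flox, triangles cKO), with mean ± SD beside each group. For Rps20 all 7 day 4 libraries lie below the 6 PBS libraries; for Rps26, Rpl27 and Rps27l 6 of 7 lie above them, and Rpl22 is at its lowest in cKO on day 11.

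The direction was also read within each genotype, in which the PBS controls of day 4 serve day 11 as well. In flox mice 50 members were higher and 31 lower on day 4 (median 0.13, all genes 0.08; 52.4% of all genes higher), and the median was -0.01 without flox day 4 number 3. In cKO mice 59 were higher and 22 lower (median 0.23, all genes -0.09; 45.4% of all genes higher). The groups did not overlap for 14 higher and 4 lower members in flox (all genes 6.81% and 3.87%) and for 9 higher and 1 lower members in cKO (all genes 1.37% and 4.76%). Rpl11, Rpl27, Rps23 and Rps27l were among the higher and Rps20 among the lower members in both genotypes. By edgeR 0 members passed in either genotype, as did 0 of all genes (0%). At an unadjusted p under 0.05 they were 8 higher and 2 lower in flox (all genes 5.55% and 2.38%) and 4 higher and 1 lower in cKO (all genes 2.21% and 5.95%). DESeq2 called 3 in flox, Rpl5, Rps2 and Rps27l (8.1% of all genes), and 2 in cKO, Rps13 and Rps26 (5.71%).

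The largest differences of well-expressed members in flox on day 4 were those of Rpl39 (log2 1.45 ± 0.72 SE), Rpl38 (1.37 ± 0.60) and Rpl24 (1.11 ± 0.61) upward. Mutations of Rpl38 and Rpl24 in mice are known for skeletal and tail defects. Rpl38 ran at 147, 45.6 and 115 CPM in flox PBS and at 327, 198 and 269 on day 4, with no overlap. Rpl39 owed its value to 1 library, at 350 CPM beside 98.6 and 69.1, and its log2 value was 0.39 without it, while Rpl24 had 0.72 without the same library, flox day 4 number 3. Downward were Rps18 (-1.03 ± 0.83 SE) and Rps15 (-0.82 ± 0.57). Rps18 likewise held a library at 6.34 CPM, without which the log2 value was -0.50, and Rps15 went to -0.32 without flox PBS number 2.

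In cKO on day 4 the largest were Rpl35a (1.23 ± 0.46 SE), Rpl11 (0.93 ± 0.34) and Rps13 (0.86 ± 0.30) upward. Rpl35a, a large subunit gene mutated in some families with Diamond-Blackfan anaemia, rested at 74.8, 174 and 174 CPM in cKO PBS and stood at 223, 358, 492 and 252 on day 4. Rps13 of the small subunit rested at 261, 350 and 260 CPM and stood at 544, 580, 588 and 394. Neither overlapped with its PBS group. Downward were Rps12 (-0.76 ± 0.65 SE), Rps24 (-0.71 ± 0.50) and Rps20 (-0.56 ± 0.25). Rps12 varied from 25.5 to 156 CPM in the day 4 group, and its value was -1.44 without cKO day 4 number 1 and -0.48 without number 3. For Rps24 it was -0.43 without number 2.

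Day 11 was set against the same PBS libraries. Of 81 members 43 were higher and 38 lower, with a median log2 fold change of 0.01 beside 0.07 for all genes, of which 52.9% were higher. In edgeR 0 members and 17 of all genes (0.122%) passed, and at an unadjusted p under 0.05 there were 3 members higher and 1 lower (all genes 6.17% and 2.94%). DESeq2 called 1 member, Rps26 (all genes 8.38%). Higher were 25 of 46 60S genes and 15 of 31 40S genes, leaving out paralogs.

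Rps26 was again above PBS on day 11, at 441, 396, 442 and 451 CPM in flox and 367, 530, 334 and 426 in cKO. Each but the third cKO library lay above the highest PBS library (356 CPM), and the log2 fold change was 0.57 ± 0.20 (SE; adjusted p = 0.341, edgeR). Rpsa was at 303, 220, 316 and 298 CPM in flox and 319, 218, 332 and 325 in cKO on day 11, beside 152 to 239 in PBS (log2 fold change 0.56 ± 0.23 SE, adjusted p = 0.398, edgeR). The second library of each genotype fell inside the PBS range and the other 6 lay above it. Rplp0 had a log2 fold change of 0.47 ± 0.22 (SE), and 6 of 8 day 11 libraries were above PBS. Rps27l, with 15.7, 99.4, 72.6 and 113 CPM in flox and 48.2, 77.4, 87.3 and 73.4 in cKO, overlapped with PBS (log2 fold change 0.90 ± 0.49 SE). Rpl11 was back in the PBS range in 5 of 8 libraries (log2 fold change 0.21 ± 0.24 SE).

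Rpl22, a large subunit protein known as dispensable for general translation and for holding down the mRNA of its paralog Rpl22l1, was the lower member with the smallest p. It was at 433, 626 and 433 CPM in flox PBS and 517, 376 and 420 in cKO PBS. On day 11 it was at 545, 296, 386 and 326 in flox and at 322, 288, 142 and 181.6 in cKO. All 4 cKO libraries and 2 flox libraries lay below the lowest PBS library, and the log2 fold change was -0.63 ± 0.23 (SE; adjusted p = 0.342, edgeR). Within cKO it was -0.91 ± 0.33 (SE; adjusted p = 0.805, edgeR). Rpl22l1 overlapped between the stages, with a median of 21.4 CPM in PBS (2.16 to 75.4), 37.9 on day 4 (18.5 to 112) and 27.8 on day 11 (3.85 to 65.1).

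Within flox on day 11, 42 members were higher and 39 lower (53.2% of all genes higher), and 3 higher members, Rpl24, Rplp0 and Rps26, and 2 lower, Rpl4 among them, did not overlap with PBS (all genes 3.86% and 2.53%). By edgeR 0 members and 0% of all genes passed, with 3 members higher and 1 lower at an unadjusted p under 0.05 (all genes 5.9% and 2.35%), and DESeq2 called 0 members (all genes 8.17%). Rpl24 ran at 29.2, 46.4 and 70.3 CPM in PBS and at 144, 111, 101.5 and 86.3 on day 11 (log2 fold change 1.19 ± 0.59 SE), and Rplp0 had 0.82 ± 0.32 (SE). Rpl39 had 1.06 ± 0.68 (SE), which was 0.63 without flox day 11 number 4. Rpl4, which lines the exit tunnel of the nascent chain, ran at 448, 330 and 299 CPM in PBS and at 222, 260, 179.4 and 254 on day 11, and its log2 fold change was -0.65 ± 0.36 and that of Rpl7 -0.52 ± 0.30 (SE), the latter being -0.23 without flox PBS number 1.

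Within cKO on day 11, 44 members were higher and 37 lower (47.5% of all genes higher). No higher member was free of overlap with PBS (all genes 2.75%) and 2 lower ones were, Rpl22 and Rps12 (all genes 4.03%). In edgeR 0 members and 7 of all genes (0.0504%) passed, with 0 members higher and 2 lower at an unadjusted p under 0.05 (all genes 2.59% and 3.42%), and DESeq2 called 0 members (all genes 4.6%). The members leading upward had wide errors, Rps15 at 0.61 ± 0.53, Rpsa at 0.48 ± 0.32 and Rpl35 at 0.47 ± 0.52 (log2 fold change, SE), and Rps15 was at 0.03 without cKO day 11 number 2. Downward beside Rpl22 were Rps12 (-0.82 ± 0.65 SE) and Rps21 (-0.77 ± 0.31 SE, adjusted p = 0.805, edgeR). Rps12 was at -0.52 without cKO day 11 number 3. Rps21, a small protein of the 40S body, was at 386, 625 and 656 CPM in cKO PBS and at 400, 401, 168.4 and 336 on day 11, with 2 libraries just above the lowest PBS value.

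**Figure D3:**
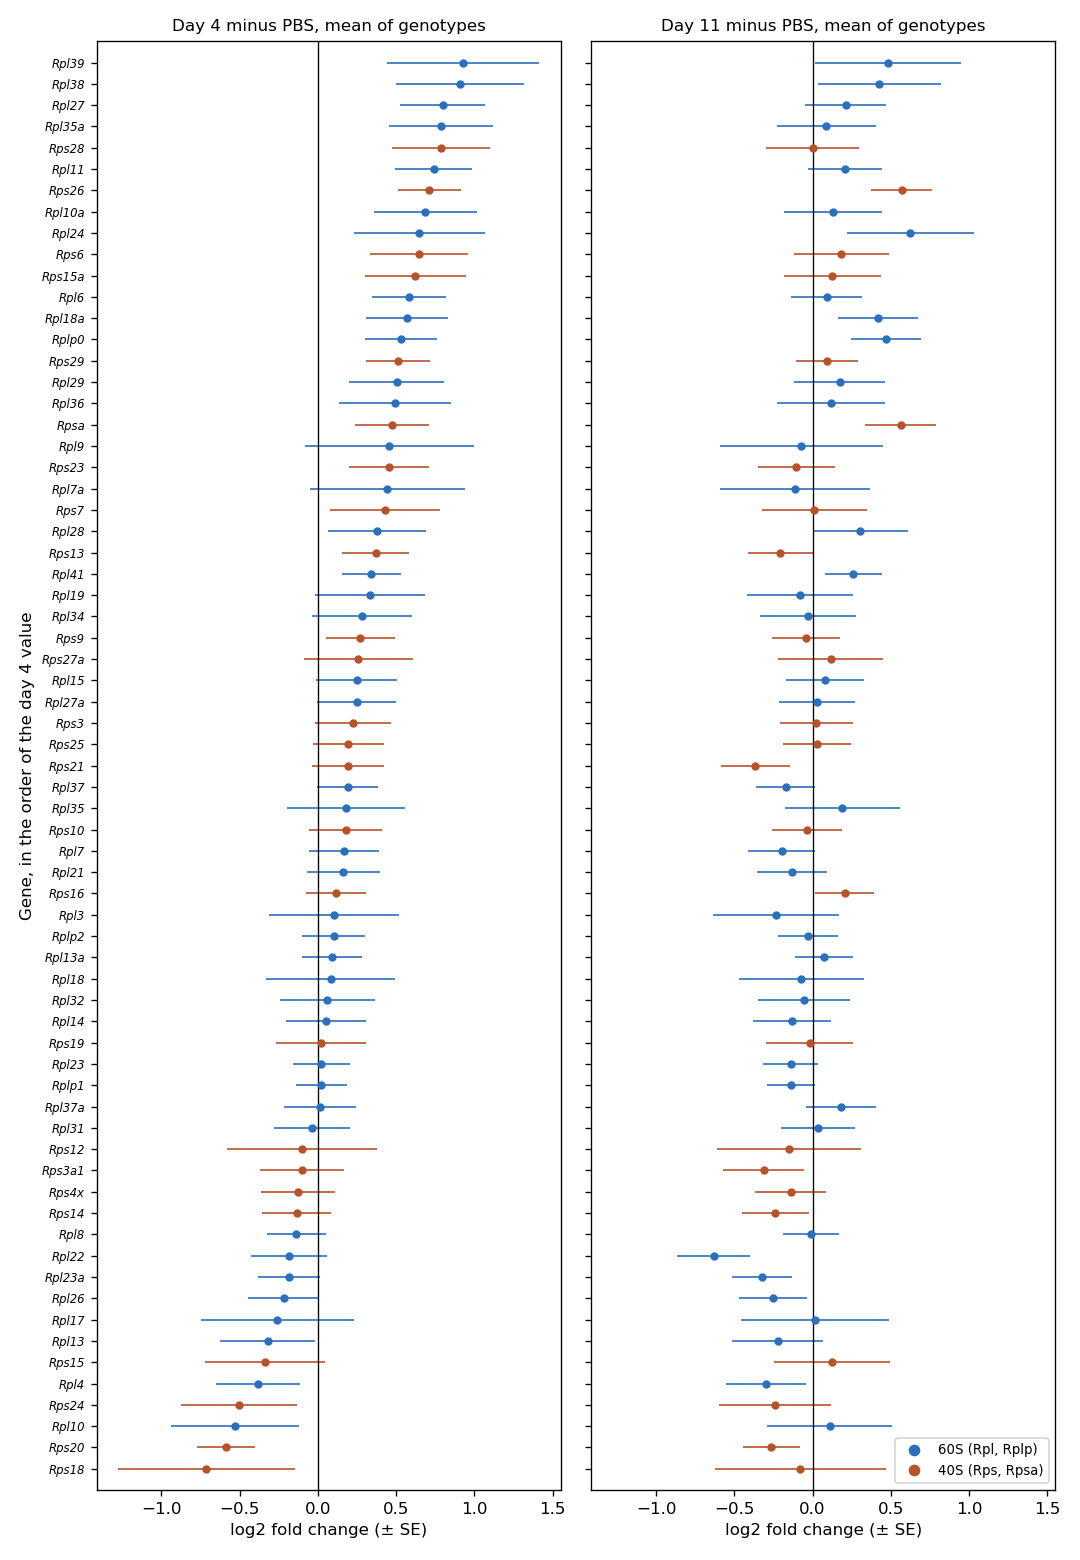
Log2 fold change ± SE (edgeR) of 67 of the 71 members with an average log2 CPM of 6 or more, for day 4 minus PBS and day 11 minus PBS, both over the mean of the genotypes and both with the same PBS libraries, in the order of the day 4 value. On day 4, 50 of the 67 lie right of 0; on day 11 they lie on both sides, with 34 right and 33 left, and Rpl22 is lowest.

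Day 11 was also compared with day 4 directly. Of 81 members 20 were higher and 61 lower, with a median log2 fold change of -0.16, where all genes had a median of 0.07 and 52.9% were higher. By edgeR 0 members and 0 of all genes (0%) passed, at an unadjusted p under 0.05 there were 0 members higher and 9 lower (all genes 5.1% and 3.47%), and DESeq2 called 0 members (all genes 6.99%). The smallest p belonged to Rps13 (-0.57 ± 0.20 SE), then to Rps28 (-0.78 ± 0.29), Rps21 (-0.56 ± 0.21) and Rps23 (-0.56 ± 0.24), all small subunit genes (adjusted p = 0.382, 0.382, 0.388 and 0.459, edgeR). Rps23, which takes part in decoding, was at 293, 308 and 473 CPM in flox and 445, 359, 405 and 397 in cKO on day 4. On day 11 it was at 284, 281, 139 and 451 in flox and 296, 313, 145 and 165 in cKO. In cKO the 2 days did not overlap for Rps23, and in flox they did.

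The share of mitochondrially encoded reads and the markers of both tubule lists were lower on day 11 than on day 4, as were most members. Mitochondrial reads took a median of 5.82% of a library in PBS (5.06% to 7.37%), 7.58% on day 4 (5.25% to 9.64%) and 4.20% on day 11 (2.32% to 7.21%), and 13 of 14 proximal tubule markers had a lower fitted level on day 11 than on day 4 (median log2 difference -0.79). So did 13 of 14 distal nephron markers (median -1.22). Summed distal nephron markers had a median of 4245 CPM in PBS, 4020 on day 4 and 2707 on day 11. Against PBS the members' median on day 11 was 0.01, and the mitochondrial share and both summed lists had lower medians than in PBS. The parts of the mitochondrial share and of the distal nephron were not tested. The mean log2 CPM of the proximal tubule markers was used as a covariate. The median over members was then 0.16 for day 4 against PBS and -0.17 for day 11 against day 4. The summed macrophage markers (14 genes) ran from 190 to 479 CPM in PBS (median 252), from 112 to 494 on day 4 (median 352) and from 142 to 616 on day 11 (median 374), and their part was not tested.

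The genotype was compared at each stage. In PBS mice 45 members were higher and 36 lower in cKO than in flox (median 0.08, all genes 0.08, 52.6% of all genes higher). On day 4 the count was 56 and 25 (median 0.16, all genes -0.06, 45.8% of all genes higher). On day 11 it was 44 and 37 (median 0.01, all genes -0.02, 48.1% of all genes higher). The median in PBS was 0.00 without cKO PBS number 3. On day 4 it was 0.09 without flox number 2 and 0.25 without flox number 3, and on day 11 -0.10 without cKO number 1 and 0.13 without flox number 4. None of the members passed in edgeR at any of the 3 stages, and neither did any other gene (0%). At an unadjusted p under 0.05 there were 1 higher member and 0 lower in PBS (all genes 4.62% and 1.4%), 4 and 0 on day 4 (2.14% and 5.27%) and 0 and 2 on day 11 (2.73% and 3.14%). DESeq2 called 0 members at each stage (all genes 6.73%, 5.76% and 3.56%).

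Without overlap between genotypes there were 8 higher members and 0 lower in PBS (all genes 7.27% and 2.96%), Rpl24, Rpl39 and Rps27l among the 8. On day 4 there were 4 higher, Rpl11, Rpl18, Rpl21 and Rps25, and 1 lower, Rps2 (all genes 1.09% and 3.37%). On day 11 there were 0 higher and 1 lower (all genes 1.23% and 1.29%). That one was Rpl10, which enters the large subunit late in assembly, at 281, 237, 230 and 194 CPM in flox and 124, 99.003, 118 and 103 in cKO, a log2 difference of -1.09 ± 0.53 (SE; adjusted p = 0.839, edgeR). In PBS the same gene spread from 44.5 to 299 CPM in flox and from 97.9 to 163 in cKO. The 3′ end of Rpl10 shared 100% of its 50-base stretches with other genes, so these levels are uncertain.

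Averaged over the stages, 49 members were higher and 32 lower in cKO (median 0.06, all genes 0.01; 50.7% of all genes higher), and the median was 0.00 without cKO day 11 number 1 and 0.11 without flox day 11 number 4. By edgeR 0 members and 1 of all genes (0.0072%) passed, at an unadjusted p under 0.05 there were 1 higher and 0 lower (all genes 3.95% and 2.67%), and DESeq2 called 0 members (all genes 6.5%). The largest upward differences were those of Rpl18 (0.77 ± 0.33 SE, adjusted p = 0.635, edgeR), Rpl24 (0.58 ± 0.33) and Rpl17 (0.37 ± 0.39). On day 4 Rpl18 was at 36.6, 54.2 and 107 CPM in flox and at 117, 139, 164 and 223 in cKO, whereas in PBS and on day 11 the genotypes overlapped. Rpl17 was at 0.19 without cKO day 4 number 2. The largest downward ones were those of Rpl10 (-0.62 ± 0.32 SE, adjusted p = 0.817, edgeR), Rpl10a (-0.39 ± 0.26) and Rpl22 (-0.31 ± 0.19), and Rpl10a was at -0.23 without flox day 4 number 3.

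Whether the response to serum differed between genotypes was tested by the interaction. For day 4, 47 members had a larger value in cKO and 34 a smaller one (median 0.16, all genes -0.28; 43.5% of all genes larger), and for day 11 these were 35 and 46 (median -0.08, all genes -0.20; 44.8% of all genes larger). The day 4 median was 0.06 without flox PBS number 2 and ran from 0.03 to 0.29 over the other settings tried. The day 11 median was -0.20 without cKO day 11 number 1 and 0.03 without flox day 11 number 4. The edgeR test passed 0 members in either, and 0 of all genes (0%). At an unadjusted p under 0.05 there were 2 members larger and 0 smaller for day 4 (all genes 1.93% and 5.81%), and 0 larger and 1 smaller for day 11 (1.83% and 5.1%), while DESeq2 called 0 members in both (all genes 8.01% and 6.84%). Rps13 was among those larger for day 4, with a log2 interaction of 0.98 ± 0.43 (SE; adjusted p = 0.574, edgeR). Rps13 in flox was at 342, 352 and 411 CPM in PBS and at 350, 261 and 404 on day 4, which overlapped.

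Members varied together within groups, though loosely. After removing group means, the 2485 pairs among the 71 well-expressed members had a median Pearson r of 0.13 with 66.0% of pairs above 0, and all pairs among the 2090 genes at that level had a median of -0.00 with 49.9% above 0. Pairs of a 60S with a 40S gene had a median of 0.14. These pairs share libraries and the same scaling and are given as a description. The within-group SD of log2 CPM had a median of 0.47 over the members and 0.67 over all genes at that level. That level is only a minimum, and members and other genes were not matched above it, for the SD or for the pairs. Among the members the SD tended to be lower where the mean log2 CPM was higher. The steadiest were Rpl23 (0.26), Rplp1 (0.26) and Rps26 (0.26), and the most variable was Rps18 (1.48). It was far below its PBS level in 1 day 4 library of each genotype, as the map of members by library shows.

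**Figure D4:**
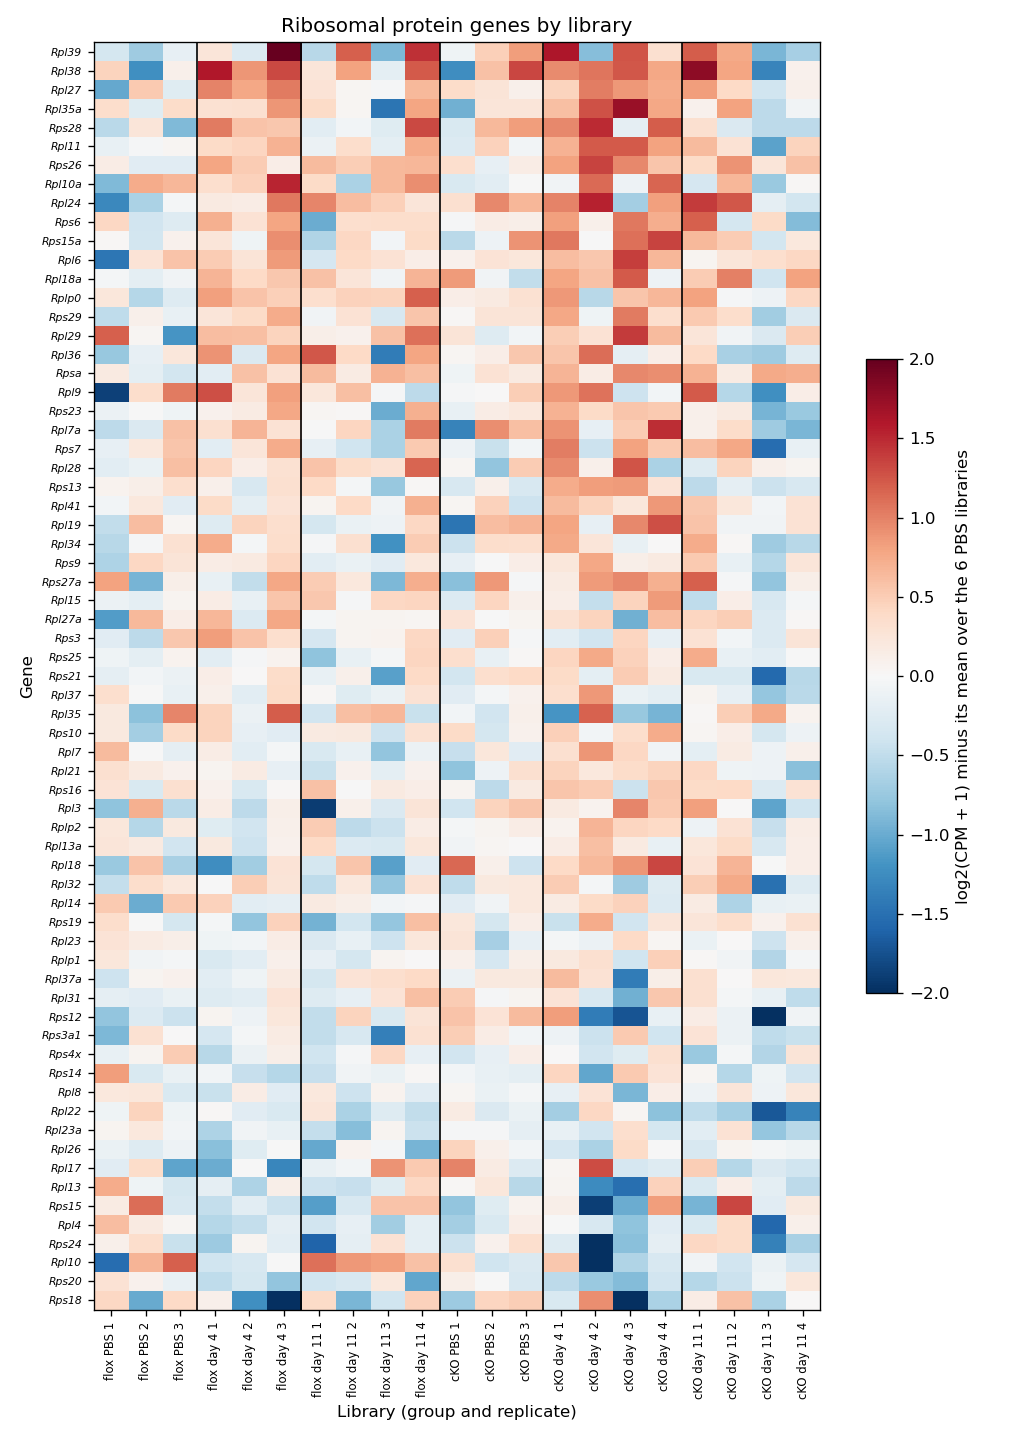
Each row is 1 of 67 of the 71 members with an average log2 CPM of 6 or more, each column a library, and the colour is log2(CPM + 1) minus the mean of the gene over the 6 PBS libraries, with values past the ends of the scale drawn in the end colour. The median over rows lies between 0.282 and 0.437 in the 4 cKO day 4 libraries and runs from -0.367 to 0.269 in cKO day 11.

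Among tested members with a RefSeq promoter, the fold changes were also read by the tract at the start. With it 22 of 26 tested members were higher on day 4, with a median of 0.25, and without it 25 of 34, with a median of 0.21. On day 11 these were 14 of 26 and 20 of 34, both with a median of 0.03. Where the listed start is off, as for Rpl22, a member counted as without a tract may still carry one. For ACTTCCG in the promoter the day 4 counts were 17 of 21 with it (median 0.19) and 30 of 39 without (median 0.25).

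Of the other paralogs, Rps4l, a copy of the X-linked Rps4x, had medians of 35.8, 35.3 and 27.5 CPM in PBS, on day 4 and on day 11, where Rps4x had 318, 299 and 306. Rpl7l1, related to Rpl7, had medians of 55.6, 62.5 and 32.8 CPM and was at 0 in 1 day 4 library. Rpl3, whose muscle paralog Rpl3l was at or near 0, had medians of 110, 114 and 94.4 CPM. In each case the stages overlapped.

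The genes around the ribosome were read from lists drawn up beside the members. For day 4 against PBS the fitted level was higher for 6 of 9 elongation factors (median log2 fold change 0.27), 22 of 30 initiation factors (0.20), 10 of 18 other mRNAs with a TOP tract (0.07), 23 of 48 ribosome assembly genes (-0.03), 11 of 20 genes of mTORC1 and of ribosomal protein gene control (0.13), 7 of 12 genes of p53 and ribosome stress (0.33) and 45 of 77 mitochondrial ribosomal protein genes (0.13). For day 11 these were 8 of 9 (0.45), 18 of 30 (0.08), 9 of 18 (-0.04), 24 of 48 (-0.00), 6 of 20 (-0.17), 10 of 12 (0.48) and 39 of 77 (0.01). By edgeR 0 genes of these lists passed on either day.

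Among them Yy1, a regulator of ribosomal protein promoters, had a mean of 164 CPM in flox PBS and 167.6 in cKO PBS, and of 79.4 and 75.6 on day 4 (log2 fold change -1.10 ± 0.36 SE, adjusted p = 0.376, edgeR). Tpt1, a TOP mRNA for a growth-linked tumour protein, had means of 579 and 663 CPM in PBS and 846 and 964 on day 4 (0.54 ± 0.21 SE, adjusted p = 0.395, edgeR). Eef2, which moves the ribosome along the mRNA, had a log2 fold change of -0.36 ± 0.15 (SE) on day 4, and Eif2s2, of the complex that brings the initiator tRNA, one of 0.46 ± 0.19 (SE). On day 11 Vim, which encodes vimentin and also carries a TOP tract, had 1.52 ± 0.40 (SE, adjusted p = 0.224, edgeR). Eef1a1 had 0.50 ± 0.22 (SE, adjusted p = 0.473, edgeR) and Cdkn1a, the p53 target p21, 1.67 ± 0.76 (SE, adjusted p = 0.502, edgeR).

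Over the 21 libraries the genes whose log2 CPM followed the mean of the members most closely, out of 2019 other genes with an average log2 CPM of 6 or more, were Tpt1 (Pearson r = 0.81), Ppia (0.81), Actg1 (0.79), Tmsb4x (0.75) and Nono (0.74). The points share libraries and depth, so these values are a description.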

How the data were processed

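Glomerular RNA of 21 mice was counted per gene by the authors. Each deposited table gives estimated counts and TPM for 35598 Ensembl genes, per the file headers; FastQC, fastp, DRAGEN, Picard and the build mm10 are named, without versions, in the submitters' processing notes. Of the deposited estimated counts above 0, 95.2% were whole within 0.005. Symbols came from GENCODE M21 (35513 genes matched, 85 did not). No 2 libraries held identical values.

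Estimated counts were rounded. Genes were filtered with filterByExpr (minimum count 10) and scaled by TMM. A model of 6 group means over all 21 libraries was tested in edgeR 4.0.16 (R 4.3.3) by the robust quasi-likelihood F test, with Benjamini-Hochberg adjustment over 13898 genes and calls at 0.05. The SE is the fold change over the root of F. The script was tested on simulated data. Their variation was lower than the common biological coefficient of variation of these data, 1.66, so recovery at that level was not tested. CPM are TMM-scaled. DESeq2 1.42.0, limma 3.58.1 (voom with quality weights), other scalings and filters, covariates and libraries left out were alternatives. Each sample is a separate mouse; the labels give no litter or cage.

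The members, gene lists and tests were chosen with earlier results of these data known. Named genes were the 3 largest rises and falls among members with an average log2 CPM of 6 or more in each genotype and day and in cKO against flox, paralog pairs and listed members. Members with the smallest p over the mean of genotypes were added after their values were seen. The context genes named for day 4 and for day 11 were picked by the smallest p in their lists, so these too rest on seen values. Some members are not reported here by name.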

Additional observations from a re-analysis of the deposited data

Results flagged for a closer look

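Among 32 quantities, 96 groups of 4 mice were examined for a single library far from the others, and 6 were marked; chance alone marks about 1 group in 20. In cKO day 4 number 2, Rpl17 was at 178.8 CPM beside 56.8 to 73.8 in the other 3 mice, and Rpl35 was at 324.1 CPM beside 62.6 to 84.1. In flox day 11 number 4, Rplp0 was at 791.9 CPM beside 434.9 to 475.6, and Rps28 was at 484.9 CPM beside 162.4 to 186.5. Rpsa was at 218.1 CPM in cKO day 11 number 2, below 318.5 to 332.0 in the others. Rps27l was at 83.8 CPM in cKO day 4 number 4, below a tight 102.2 to 102.8.

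For a pair of members the genotypes moved in opposite directions from their own PBS mean in every mouse. Rpl7 changed by -53.3 CPM on day 4 in flox and by 142 CPM in cKO. Without flox PBS number 1 (519 CPM beside 331 and 295) the flox change was 15.5 CPM, with 2 of 3 mice above the PBS mean, and without cKO day 4 number 2 the cKO change was 85.2 CPM; edgeR's interaction was 0.77 ± 0.44 (log2, SE; adjusted p = 0.761). Rps28 changed by 94.99 CPM on day 11 in flox and by -102 CPM in cKO. Without flox day 11 number 4 the flox change was 16.7 CPM, and with a cKO PBS library left out the cKO change ran from -158 to -63.6 CPM; the interaction was -1.38 ± 0.60 (log2, SE; adjusted p = 0.672). Neither passed the test of the difference.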

How the results depend on the processing

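Across the alternatives run (12 per comparison, 11 for cKO against flox over the mean of stages, and each of the 21 libraries left out in turn), edgeR and limma called 0 members in all 13 comparisons. The share of all genes called by limma is not given here, so its 0 is not read as a result about the members. DESeq2 called 3 members for flox day 4, 2 for cKO day 4, 7 for day 4 over both genotypes and 1 for day 11 over both genotypes; its fitted log2 values were 0.95 for Rps13 in cKO on day 4, 0.72 for Rps26, -0.59 for Rps20, 0.76 for Rpl11, 0.81 for Rpl27, 3.87 for Rpl5 and 1.31 for Rps27l on day 4, and 0.58 for Rps26 on day 11. The cause was not tested. The shares of all genes that DESeq2 called stand beside these counts above. Without the ribosomal RNA gene in the denominator, the share of reads was 3.01% in flox PBS, 3.11% in flox day 4, 3.01% in flox day 11, 3.00% in cKO PBS, 3.48% in cKO day 4 and 3.00% in cKO day 11, above the share of all reads by construction, and with pseudogene symbols added it was 2.44% in flox PBS. With 1 library left out, the median over members ran from 0.13 to 0.26 for day 4 over both genotypes, from 0.21 to 0.34 for cKO day 4, from -0.01 to 0.21 for flox day 4 and from -0.06 to 0.07 for day 11. The members' medians near 0 changed sign under some alternatives. Replicate numbers did not pair the mice: of 48 pairs with the same number in different groups 0 had r over 0.1 (median -0.00), and 3 of 21 libraries correlated best with their own number. With the replicate number as a block, 0 members were called in each comparison and the day 4 median was 0.18. Rpl5 and Rps27 were at or near 0 in some libraries and not in others, and not always in the shallower ones: Rpl5 was at 0 CPM in flox PBS number 1 (19470092 reads) and at 452 in cKO day 4 number 3 (12465771 reads).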
